A study of Mus musculus with 6 samples.

Results

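The SLC25 genes encode the carrier proteins that move metabolites through the inner mitochondrial membrane, and their messenger RNA was compared between 2 groups of mouse calf muscle. Members were all genes annotated as protein coding in the count table whose symbol begins with Slc25a, which gave 47 of 54532 genes. Of these, 40 had enough counts to be among the 14973 genes tested, and the other 7 are given below by their counts. The tissue was gastrocnemius, a mixed but mainly fast-twitch muscle, of C57BL/6J mice aged 3 months. All 6 libraries came from animals carrying Mck cre, a Cre recombinase driven by the promoter of muscle creatine kinase, and the drinking water of the animals held doxycycline at 0.2% from an age of 4 weeks. The 3 control libraries carried the Cre driver alone, and the other 3 carried the Cre driver with a transgene labelled Tg Glut1-Hk2-Pfkfb3. Whether each library is a different animal is not stated in the labels, so a p-value here reflects only how much these samples vary, which may be technical. Sex, litter and batch are not labelled either.

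Mitochondria import ADP, phosphate, pyruvate, fatty acyl groups, cofactors and metal ions and export ATP and biosynthetic intermediates. Most SLC25 carriers do this by strict exchange, in which 1 molecule enters as another leaves. In muscle the ADP/ATP carrier and the phosphate carrier feed ATP synthase. The aspartate/glutamate carrier and the oxoglutarate carrier form the malate-aspartate shuttle, which passes reducing equivalents from glycolysis into the matrix. Most carriers have no cleaved targeting sequence and reach the membrane through a dedicated import route of the TOM and TIM22 complexes.

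Stretches of DNA just upstream of the start are shown for 3 of the members that the text below turns on, chosen with their values known. Slc25a33 and Slc25a36 both carry pyrimidine nucleotides, and Slc25a25 had the widest spread of the calcium-regulated adenine nucleotide carriers. The sequences are from RefSeq on GRCm38.p6, read 5′ to 3′ on the minus strand on which all 3 genes lie. They are cut where a GENCODE exon begins, and capitals mark the motifs searched. The stretch of Slc25a25 is chr2:32424067-32424316, before 1 of its alternative RefSeq starts. A stretch before another of its starts, chr2:32431170-32431401, held none of the motifs searched and is not printed. That of Slc25a33 is chr4:149774278-149774517 and that of Slc25a36 is chr9:97111158-97111291.
Slc25a25: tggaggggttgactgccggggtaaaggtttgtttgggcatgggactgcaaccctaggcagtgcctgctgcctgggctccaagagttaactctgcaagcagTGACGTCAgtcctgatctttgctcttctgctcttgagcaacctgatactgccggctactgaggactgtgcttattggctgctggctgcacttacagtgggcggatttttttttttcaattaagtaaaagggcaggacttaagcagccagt
Slc25a33: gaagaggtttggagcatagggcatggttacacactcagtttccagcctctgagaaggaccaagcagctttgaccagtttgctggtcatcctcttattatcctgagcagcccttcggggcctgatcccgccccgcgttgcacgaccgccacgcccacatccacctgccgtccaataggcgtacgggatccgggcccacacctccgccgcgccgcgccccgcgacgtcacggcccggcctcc
Slc25a36: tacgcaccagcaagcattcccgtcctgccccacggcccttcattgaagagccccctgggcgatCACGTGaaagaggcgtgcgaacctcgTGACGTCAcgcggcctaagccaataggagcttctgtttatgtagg

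The motif search covered the 250 bases before each RefSeq start, on both strands. Starts were found for 36 of the 47 members, 46 starts in all. The cAMP response element TGACGTCA lay before 2 of the 46 starts (4.35%), 1 of Slc25a25 and 1 of Slc25a36, against 1.55% of 32851 starts of all genes. The E-box CACGTG lay before 8 starts (17.4%), Slc25a33 and Slc25a36 among them, against 6.02% of all starts. In Slc25a33 it began 8 bases before the RefSeq start, inside a GENCODE exon, and so is not in the printed stretch. The ETS core CTTCCGG lay before 6 starts (13.0%, all starts 6.91%), that of Slc25a4 among them, and the NRF1 core TGCGCA before 4 (8.70%, all starts 6.43%). Slc25a36 was among the genes with the NRF1 core, which began 90 bases before its start. It too lay inside a GENCODE exon and is not in the printed stretch. The nuclear receptor half-site AAGGTCA lay before 1 start, of Slc25a34 (2.17%, all starts 4.08%). Nuclear genes of oxidative phosphorylation held the NRF1 core before 19.7% of 71 starts and the ETS core before 16.9%. They held the cAMP response element before 5.63%, more than the carriers did, the E-box before 8.45% and the half-site before 7.04%. These are matches of letters, and no binding was measured.

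Library totals ran from 19546456 to 24665024 counts, so that 3 counts corresponded to 0.120 to 0.145 CPM (counts scaled to library size), and this floor covers counting error only. The muscle fibre genes summed to 70954 to 106983 CPM in every library, which fits the labelled tissue. None of the 3 genes named in the transgene was called higher in the libraries labelled transgenic. The log2 fold changes in the libraries labelled transgenic were -1.52 for Pfkfb3, 0.44 for Hk2 and -0.63 for Slc2a1, the gene of Glut1. None passed the test in either direction, and the groups overlapped for Hk2 and Slc2a1. Hk2 had 156, 165 and 187 CPM in controls and 341, 168 and 182 CPM in the other group, high in transgenic replicate 1 only. Whether RNA of the transgene is counted at these mouse genes was not tested. Every direction below is therefore that of the libraries labelled transgenic against control, whatever they carried. Control replicate 1 stood apart in lymphocyte genes. The 6 B cell markers summed to 477 CPM there and to 6.90 to 56.5 CPM in the other libraries, and the 5 T cell markers to 70.2 CPM against 0.277 to 2.81 CPM. Transgenic replicate 1 had the highest sums of endothelial markers (464 CPM, others 167 to 249) and adipocyte markers (1081 CPM, others 346 to 818). In whole muscle, fewer cells of a type and less RNA per cell cannot be told apart.

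No SLC25 gene passed the test between the groups when all 6 libraries were used. Of the 40 members, 0 were called higher and 0 lower by edgeR's quasi-likelihood test at an adjusted p under 0.05, where 0.788% of all genes tested were called higher and 0.508% lower. The smallest adjusted p of a member was 0.194, of Slc25a26. The number with an unadjusted p under 0.05 was 3 (Slc25a26, Slc25a47 and Slc25a39), against 20.8% of all genes tested. DESeq2 and limma-voom also called 0 members. The estimates were above 0 for 18 members and below 0 for 22, with a median log2 fold change of -0.04 against -0.03 over all genes tested. Over all genes tested, 46.6% of estimates were above 0. The median size of the estimate, without its sign, was 0.28 for the members and 0.27 for all genes. For 3 members (Slc25a23, Slc25a39 and Slc25a47) all transgenic-labelled libraries lay above all controls, where 13.8% of all genes tested did so, and for 3 (Slc25a26, Slc25a27 and Slc25a36) all lay below, where 13.6% did. The plot of estimates by carried substrate shows how wide the intervals were.

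**Figure D1:**
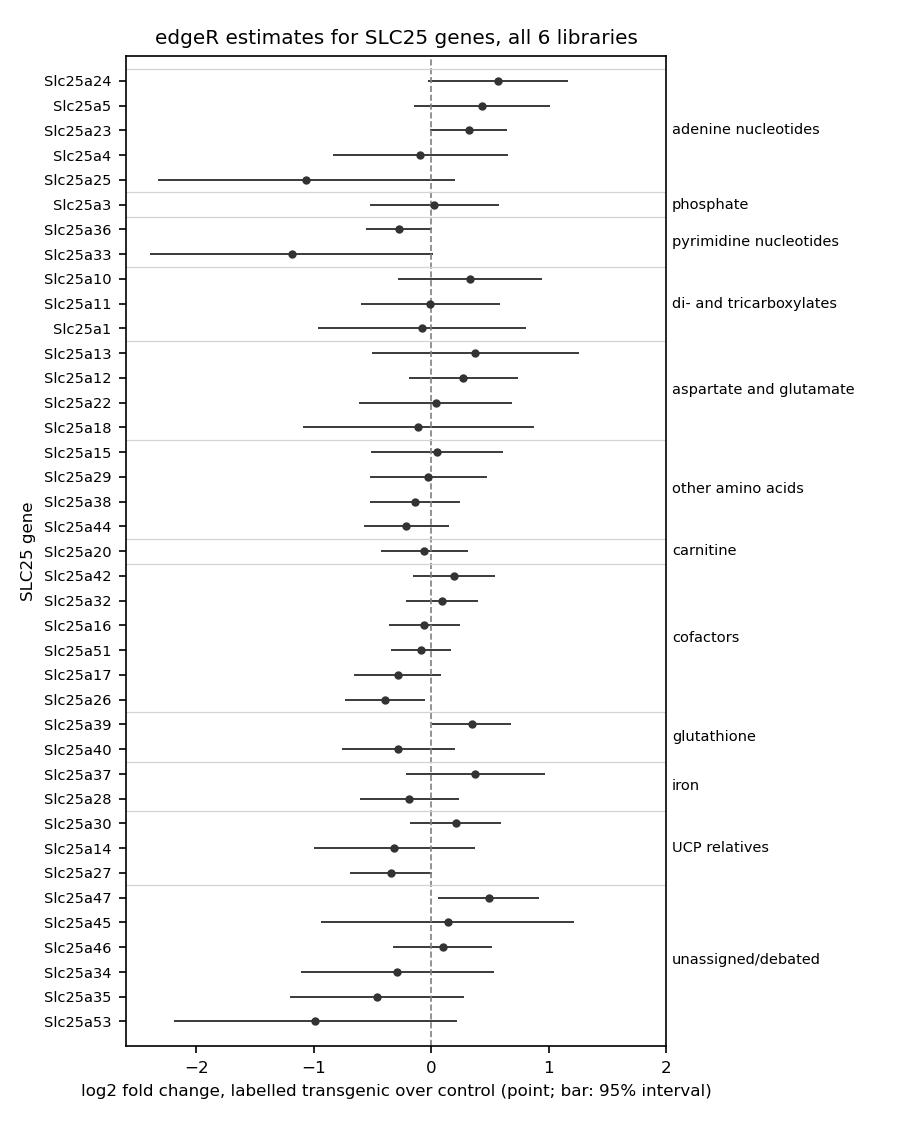
Log2 fold change of 39 of the 40 tested SLC25 genes in the libraries labelled transgenic over control, from edgeR with all 6 libraries, grouped by carried substrate. Points are estimates and bars are 95% intervals; the widest intervals belong to Slc25a25, Slc25a33 and Slc25a53, and no member passed the adjusted threshold.

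Adenine nucleotide carriers made up most of the carrier RNA. Per transcript length, as the deposited FPKM (fragments scaled to transcript length and library size), the 47 members summed to 1723, 2137 and 2074 in control replicates 1, 2 and 3. The sums were 2569, 1558 and 1523 in the transgenic-labelled replicates. The transgenic-labelled libraries thus held both the highest sum and the 2 lowest, and the log2 ratio of the groups was -0.11 (exact two-sided permutation test, p = 0.8, smallest possible 0.1). Slc25a4 alone, the ADP/ATP carrier of heart and muscle, gave 65.0% to 70.9% of the sum in each library. Its FPKM was 1369 ± 161 in controls and 1282 ± 467 in the transgenic-labelled group (SD, n = 3). The next levels were those of the phosphate carrier Slc25a3 (129 ± 17.0 and 132 ± 39.1 FPKM), the oxoglutarate carrier Slc25a11 (95.1 ± 7.89 and 94.3 ± 36.7) and the aspartate/glutamate carrier Slc25a12 (60.4 ± 11.9 and 73 ± 12.7). The gap from Slc25a4 to Slc25a3 was far beyond the spread in every library. The mitoferrin Slc25a28 followed with 45.2 ± 11.3 and 39.7 ± 2.21 FPKM, Slc25a34 with 38.7 ± 13.8 and 31.6 ± 13.5, Slc25a5 with 27.1 ± 2.83 and 36.5 ± 13.6, and Slc25a20 with 27.5 ± 3.58 and 26.3 ± 4.21. Among these 4 the spreads of neighbours overlapped.

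**Figure D2:**
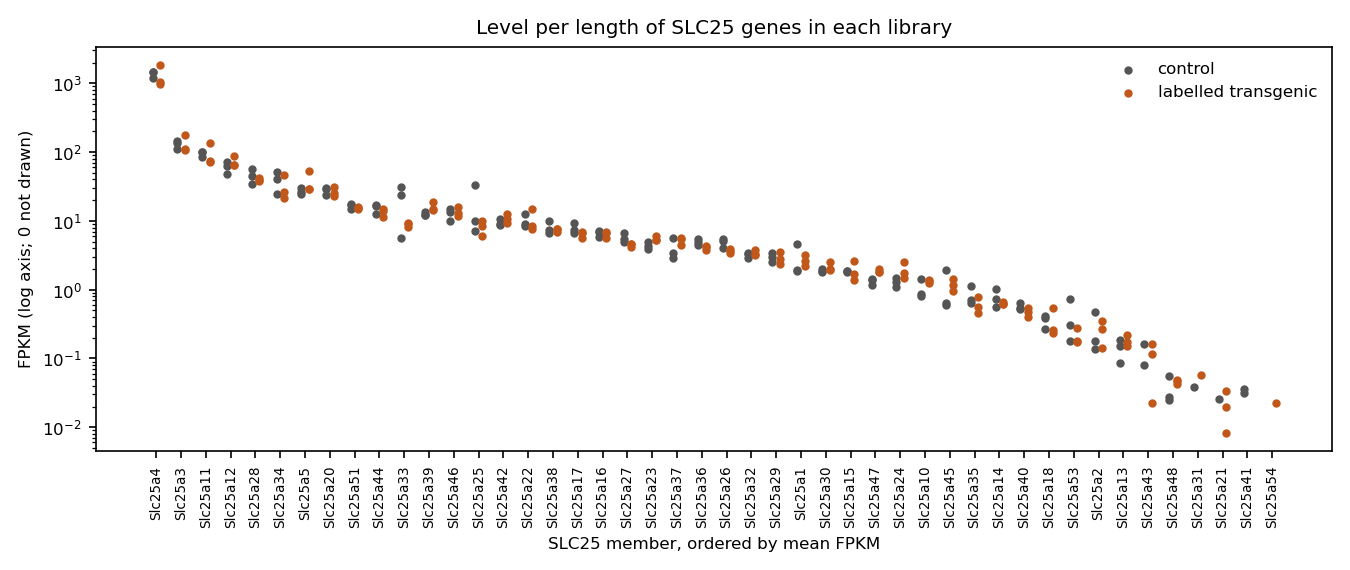
FPKM of 46 of the 47 SLC25 genes in each of the 6 libraries on a log axis, ordered by mean FPKM, with control and transgenic-labelled libraries in separate colours and values of 0 left out. Slc25a4 lies about an order of magnitude above the next gene, and the 7 genes that were not tested are among the 8 lowest, with Slc25a13 between them.

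Slc25a4 (chr8:46206797-46211284, minus strand) had 2807, 3477 and 3400.3 CPM in control replicates 1, 2 and 3. The transgenic-labelled replicates had 4325, 2438 and 2315 CPM. Replicate 1 of that group was the highest of all libraries and its replicates 2 and 3 were the lowest, and the log2 fold change was -0.09 ± 0.32 (SE; 95% interval -0.84 to 0.65, adjusted p = 0.897). Slc25a5, the ADP/ATP carrier of most other tissues and of dividing cells, had 49.8, 40.3 and 43.8 CPM in controls and 86.8, 47.4 and 46.8 CPM in the other group. Again 1 library, transgenic replicate 1, stood above the rest, and control replicate 1 exceeded transgenic replicates 2 and 3, with an estimate of 0.43 ± 0.25 (-0.14 to 1.01, adjusted p = 0.355).

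The calcium-regulated carriers of ATP-Mg and phosphate adjust the matrix pool of adenine nucleotides. Slc25a25 (chr2:32414487-32451445) had 267, 79.1 and 56.3 CPM in control replicates 1, 2 and 3 and 48.3, 66.0 and 78.0 CPM in the transgenic-labelled ones. The difference lay in control replicate 1, which was more than 3 times any other library. The log2 fold change was -1.06 ± 0.54 (-2.33 to 0.20, adjusted p = 0.309), and -0.08 ± 0.22 without that library. Slc25a24 had 5.09, 3.73 and 4.42 CPM in controls against 8.68, 5.04 and 5.93 CPM, the lowest of the second group lying just under the highest control, with an estimate of 0.57 ± 0.26 (-0.03 to 1.16, adjusted p = 0.255). Slc25a23 had 26.5, 20.3 and 22.7 CPM in controls against 31.9, 27.6 and 27.3 CPM, so that the groups did not overlap, with an estimate of 0.32 ± 0.14 (-0.01 to 0.65, adjusted p = 0.252). Over the 5 tested genes of the adenine nucleotide group the estimates were above 0 for 3 and below 0 for 2, with a median of 0.32. The other 2, the germ cell carrier Slc25a31 and the calcium-independent Slc25a41, had at most 3 counts in a library.

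The phosphate carrier Slc25a3 brings in the phosphate that ATP synthase uses. Controls had 616, 793 and 749 CPM and the transgenic-labelled libraries 990.2, 603 and 604 CPM. As for Slc25a4, transgenic replicate 1 was highest and its other 2 replicates lowest, and the estimate was 0.03 ± 0.24 (-0.52 to 0.58, adjusted p = 0.963).

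The pyrimidine nucleotide carriers held both the most negative estimate of all members and a gene without overlap. Slc25a33 (chr4:149744036-149774277), which supplies nucleotides for mitochondrial DNA and RNA synthesis, had 10.6, 58.1 and 44.8 CPM in control replicates 1, 2 and 3. It had 16.9, 15.5 and 17.3 CPM in the transgenic-labelled replicates. Those 3 agreed closely, 2 of the controls were well above them and control replicate 1 was below them. The log2 fold change was -1.19 ± 0.52 (-2.39 to 0.01, adjusted p = 0.242). Without control replicate 1, Slc25a33 fell by 1.64 ± 0.14 log2 units (adjusted p = 0.00405). Slc25a36 (chr9:97074961-97111157) had 52.4, 43.3 and 47.8 CPM in controls and 41.9, 36.5 and 40.2 CPM in the other group. Every transgenic-labelled value was below every control, with an estimate of -0.28 ± 0.12 (-0.56 to 0.0043, adjusted p = 0.244). An antisense gene overlaps each of the 2, with mean counts of 21.2 beside 603 for Slc25a33 and of 43.5 beside 997 for Slc25a36. The counting strand is unknown, so reads of the 2 strands cannot be told apart.

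**Figure D3:**
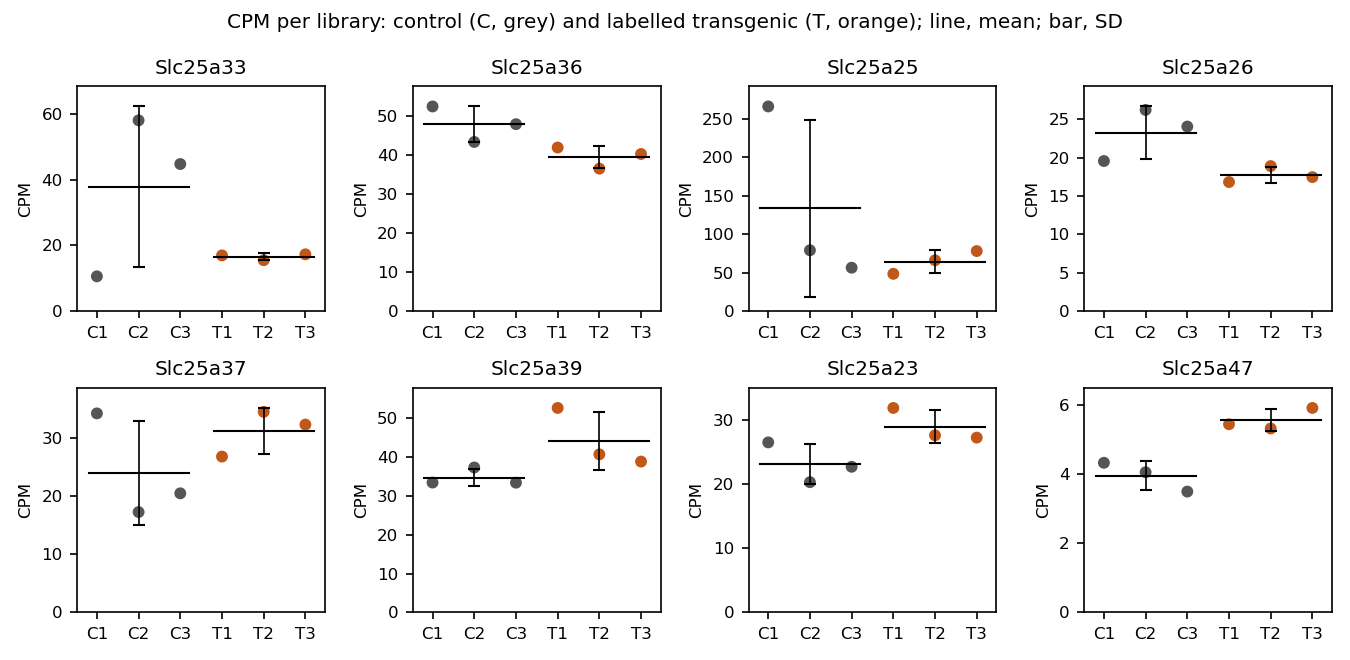
CPM of 8 SLC25 genes in each library, control (C1 to C3) and labelled transgenic (T1 to T3), with the group mean as a line and the SD as a bar. Control replicate 1 lies far from the other 2 controls in Slc25a33 (10.6 CPM, below them) and in Slc25a25 (267 CPM, above them), and the groups of Slc25a26, Slc25a36, Slc25a39, Slc25a23 and Slc25a47 do not overlap.

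Carriers of di- and tricarboxylates connect the citric acid cycle with the cytosol. Slc25a11 exchanges oxoglutarate for malate, and had 184, 209.7 and 213 CPM in controls and 293, 151 and 158 CPM in the transgenic-labelled libraries. Once more transgenic replicate 1 was highest and replicates 2 and 3 lowest, with an estimate of -0.01 ± 0.25 (-0.60 to 0.58, adjusted p = 0.988). The citrate carrier Slc25a1 had 10.1, 4.16 and 4.06 CPM in controls against 5.79, 6.98 and 4.73 CPM, and an estimate of -0.08 ± 0.38 (-0.97 to 0.81, adjusted p = 0.929). Here control replicate 1 was the highest library, and without it the estimate was 0.50 ± 0.22 (adjusted p = 0.151). The dicarboxylate carrier Slc25a10 had 3.60 ± 1.22 CPM in controls and 4.55 ± 0.251 CPM in the other group, with an estimate of 0.33. The oxoadipate carrier Slc25a21 had at most 4 counts in a library and was not tested.

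For the aspartate/glutamate exchange of the malate-aspartate shuttle, muscle expressed Slc25a12 far above Slc25a13, the liver form. Slc25a12 (chr2:71271063-71367749) had 352, 459 and 521 CPM in controls and 650.2, 482 and 479.8 CPM in the transgenic-labelled libraries. The groups overlapped, with an estimate of 0.27 ± 0.20 (-0.19 to 0.74, adjusted p = 0.465). Slc25a13 had 0.584, 0.331 and 0.691 CPM against 0.661, 0.582 and 0.841 CPM, a few counts above the floor, with an estimate of 0.38 ± 0.38 (-0.51 to 1.26, adjusted p = 0.602). The glutamate carrier Slc25a22 had 59.9 ± 13.6 and 61.4 ± 24.2 CPM and was highest in transgenic replicate 1, with 89.3 CPM. Its relative Slc25a18 had 0.683 ± 0.144 and 0.651 ± 0.319 CPM, beside a mean of 1737 counts for the overlapping Atp6v1e1, so that its 15 counts per library are uncertain. None of the 4 passed the test.

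The remaining amino acid carriers differed little relative to their spread. Slc25a44, which carries branched-chain amino acids, had 55.5 ± 8.27 CPM in controls and 47.9 ± 6.32 CPM in the other group. Slc25a38, the glycine carrier that serves haem synthesis, had 22.2 ± 4.50 and 20.1 ± 0.840 CPM. The ornithine carrier Slc25a15 had 10.3 ± 0.310 and 10.7 ± 3.67 CPM and the basic amino acid carrier Slc25a29 had 7.73 ± 1.17 and 7.58 ± 1.59 CPM. Slc25a2, a second ornithine carrier, had 4 to 14 counts in a library and was not tested. The estimates ran from -0.21 to 0.05, above 0 for 1 and below 0 for 3.

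Slc25a20 brings acylcarnitines into the matrix for fatty acid oxidation. It had 114, 146 and 139 CPM in controls and 151, 109.9 and 122 CPM in the transgenic-labelled libraries. The extremes both lay in the second group, and the estimate was -0.06 ± 0.16 (-0.43 to 0.31, adjusted p = 0.861).

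The 7 cofactor carriers held the member with the smallest p. Slc25a26 (chr6:94500331-94604672, plus strand), the carrier of the methyl donor S-adenosylmethionine, had 19.6, 26.2 and 24.1 CPM in controls and 16.8, 18.9 and 17.5 CPM in the transgenic-labelled libraries. Every transgenic-labelled value was below every control, the nearest being transgenic replicate 2 and control replicate 1. The log2 fold change was -0.39 ± 0.15 (-0.73 to -0.05, adjusted p = 0.194). Slc25a26 overlaps Lrig1 on the opposite strand, which had a mean of 2809 counts per library beside 463 for Slc25a26, so its value is uncertain. Slc25a17, a carrier of the peroxisomal membrane, had 19.4, 20.9 and 26.2 CPM against 19.7, 16.1 and 18.7 CPM, with an estimate of -0.28 ± 0.16 (-0.65 to 0.08, adjusted p = 0.345), and its groups overlapped. The NAD carrier Slc25a51 was among the steadiest members, with 82.8, 93.0 and 97.4 CPM against 89.0, 85.7 and 82.3 CPM and an estimate of -0.09 ± 0.11 (-0.34 to 0.17, adjusted p = 0.676). The coenzyme A carrier Slc25a42 had 57.1 ± 5.55 and 65.2 ± 10.9 CPM, its relative Slc25a16 had 32.1 ± 3.05 and 30.8 ± 2.83 CPM, and the folate and FAD carrier Slc25a32 had 19.7 ± 1.5 and 20.9 ± 1.94 CPM.

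Glutathione is made in the cytosol and reaches the matrix through Slc25a39 and Slc25a40. Slc25a39 (chr11:102402985-102407946) had 33.4, 37.3 and 33.4 CPM in controls and 52.6, 40.7 and 38.8 CPM in the transgenic-labelled libraries. The groups did not overlap, and transgenic replicate 1 was well above the rest. The log2 fold change was 0.34 ± 0.15 (0.01 to 0.68, adjusted p = 0.235), and 0.21 ± 0.12 without that library. Slc25a40 had 4.82 ± 0.558 CPM in controls and 3.98 ± 0.592 CPM in the second group, with an estimate of -0.28.

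The mitoferrins bring iron into the matrix for haem and iron-sulphur clusters. Slc25a37, the form best known from erythroid cells, had 34.2, 17.2 and 20.5 CPM in control replicates 1, 2 and 3 and 26.8, 34.5 and 32.3 CPM in the transgenic-labelled ones. Control replicate 1 lay among the transgenic-labelled libraries and the other 2 controls below them. The estimate with all libraries was 0.38 ± 0.25 (adjusted p = 0.429). Without control replicate 1, Slc25a37 rose by 0.72 ± 0.15 log2 units (adjusted p = 0.0285). The erythroid markers summed to 83.8, 59.4 and 46.7 CPM in controls and 76.7, 45.3 and 65.9 CPM in the other group, highest in control replicate 1, and their part in the result was not tested. The second mitoferrin, Slc25a28, had 68.6 ± 17.0 and 60.2 ± 3.41 CPM, with an estimate of -0.19.

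Among the relatives of the uncoupling proteins, Slc25a27 had 19.4, 21.3 and 26.0 CPM in controls and 18.1, 16.2 and 18.3 CPM in the transgenic-labelled libraries. The groups did not overlap, and the estimate was -0.34 ± 0.15 (-0.69 to 0.01, adjusted p = 0.247). Slc25a14 had 1.85 ± 0.575 and 1.49 ± 0.0549 CPM and Slc25a30 had 8.60 ± 0.386 and 9.93 ± 1.5 CPM.

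Of the 9 members whose substrate is unassigned or debated, 6 were tested. Slc25a47, known mainly from liver, had 4.34, 4.06 and 3.50 CPM in controls and 5.45, 5.33 and 5.93 CPM in the transgenic-labelled libraries. Its groups did not overlap, and the log2 fold change was 0.49 ± 0.18 (0.06 to 0.92, adjusted p = 0.196). Slc25a53 had 5.84, 2.46 and 1.43 CPM against 1.40, 2.18 and 1.40 CPM, and its estimate of -0.99 ± 0.52 (-2.19 to 0.22, adjusted p = 0.320) became -0.23 ± 0.35 without control replicate 1. Slc25a34 was the most abundant per length, and its CPM was 103 ± 36.7 in controls and 84.6 ± 36.9 in the other group. Slc25a46, which sits in the outer membrane, had 55.7 ± 10.5 and 59.6 ± 9.89 CPM, Slc25a35 had 3.04 ± 0.953 and 2.22 ± 0.616 CPM, and Slc25a45 had 2.8 ± 1.98 and 3.13 ± 0.683 CPM. The remaining 3, Slc25a43, Slc25a48 and Slc25a54, had at most 7 counts in a library.

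The largest differences among the libraries did not follow the groups. Of the 40 members, 15 (37.5%) were highest in transgenic replicate 1, where 21.1% of all genes tested were highest. They included Slc25a4, Slc25a5, Slc25a3, Slc25a11, Slc25a12, Slc25a15, Slc25a20 and Slc25a22. Transgenic replicates 2 and 3 held the maximum of 2 and 4 members. Control replicate 1 held the maximum of 9 members (22.5%, all genes 19.9%), Slc25a25, Slc25a53, Slc25a45 and Slc25a1 among them. The median range of a member over the 6 libraries was 0.74 log2 units, against 0.80 over all genes tested.

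**Figure D4:**
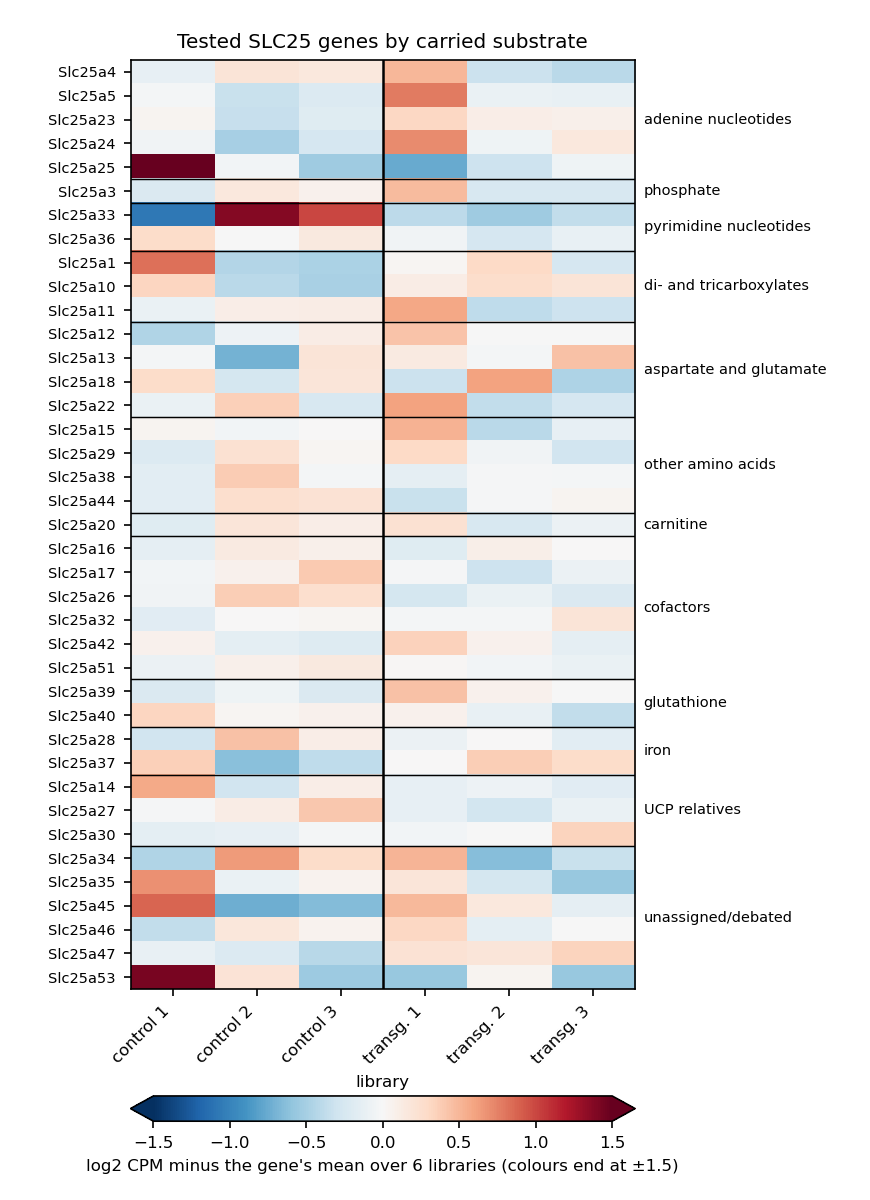
Log2 CPM of 39 of the 40 tested SLC25 genes in each library minus the gene's mean over the 6 libraries, with rows grouped by substrate and colours ending at ±1.5. Transgenic replicate 1 is high for Slc25a4, Slc25a5, Slc25a3, Slc25a11 and Slc25a22, and control replicate 1 is extreme for Slc25a25, Slc25a33 and Slc25a53.

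The order of libraries seen for Slc25a4 was also that of the oxidative phosphorylation genes. The 85 nuclear genes of that list summed to 20892, 26167 and 25736 CPM in controls and to 29971, 18704 and 18570 CPM in the transgenic-labelled libraries. Set against this sum, Slc25a4 was 13.3 ± 0.113 counts per 100 counts of the list in controls and 13.3 ± 1.01 in the other group. For Slc25a3 the values were 2.96 ± 0.0619 and 3.26 ± 0.0413, for Slc25a12 they were 1.82 ± 0.181 and 2.44 ± 0.237, and for Slc25a5 they were 0.188 ± 0.0449 and 0.265 ± 0.0212. In these 3 every transgenic-labelled library lay above every control (exact two-sided permutation test, p = 0.1 each, the smallest that 3 against 3 allow, and 0.267 after Benjamini-Hochberg adjustment over 8 genes). The 8 were the members with the highest FPKM. The log2 ratios of the groups were 0.14 for Slc25a3, 0.42 for Slc25a12 and 0.52 for Slc25a5. Scaling by this list also moved the median log2 fold change over all genes tested from -0.03 to 0.12, so a rise on this scale is not particular to carriers. Over all 40 tested members, 5 lay higher without overlap on this scale and 0 lower, where 9.52% of all genes tested lay higher and 3.69% lower. Of the 8 members, Slc25a11, Slc25a20, Slc25a28 and Slc25a34 overlapped between the groups as Slc25a4 did. A part of endothelial or adipocyte RNA in the values of transgenic replicate 1 was not tested.

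**Figure D5:**
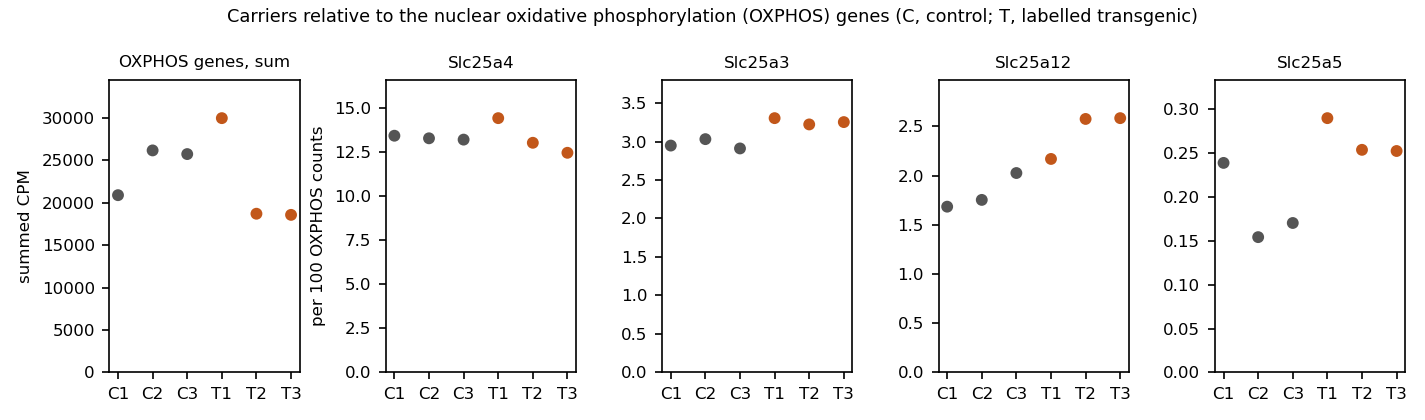
Summed CPM of the nuclear oxidative phosphorylation genes in each library (left), and counts of Slc25a4, Slc25a3, Slc25a12 and Slc25a5 per 100 counts of those genes, for control (C1 to C3) and transgenic-labelled (T1 to T3) libraries. The sum is highest in T1 and lowest in T2 and T3, while the ratios of Slc25a3, Slc25a12 and Slc25a5 are higher in T1 to T3 than in any control. Slc25a11, Slc25a20, Slc25a28 and Slc25a34, whose groups overlapped on this scale, are not drawn.

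Ratios between related carriers were compared within each library, on the log2 scale of FPKM plus 0.01. The ratio of Slc25a4 to Slc25a5, the muscle form to the general form of the ADP/ATP carrier, was 5.30, 5.91 and 5.76 in controls and 5.12, 5.17 and 5.11 in the transgenic-labelled libraries. All 3 of the latter were below all controls, with a difference of -0.52. The ratio of Slc25a39 to Slc25a40 was 4.20, 4.65 and 4.45 against 5.11, 4.91 and 5.10, a difference of 0.61. Both gave p = 0.1 in the exact two-sided permutation test and 0.55 after adjustment over the 11 pairs compared, so neither passed. In the other 9 pairs the groups overlapped. Among controls the largest SD was that of Slc25a33 to Slc25a36, whose values were 0.03, 2.77 and 2.25 in controls against 1.04, 1.11 and 1.12.

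Leaving out control replicate 1 was the only single omission that gave calls among the members. Slc25a37 was then called higher, and Slc25a33 and Slc25a26 (-0.50 ± 0.12, adjusted p = 0.0385) were called lower. That is 1 of 40 higher, where 6.08% of all genes tested were called higher, and 2 of 40 lower, where 6.99% were. In a further fit, chosen after the values were seen, control replicate 1 and transgenic replicate 1 were both left out, which leaves 2 libraries against 2. It called 2 members higher (Slc25a37 at 0.84 ± 0.13 and Slc25a10 at 0.71 ± 0.21; all genes 10.5%) and 6 lower (all genes 11.4%). The 6 were Slc25a33 (-1.63 ± 0.15, adjusted p = 0.000876), Slc25a34 (-0.93 ± 0.15), Slc25a4 (-0.51 ± 0.12), Slc25a26 (-0.45 ± 0.12), Slc25a11 (-0.43 ± 0.09) and Slc25a3 (-0.33 ± 0.10). The lymphocyte markers named above were high in the first omitted library, and their part was not tested. With fits that depend on which libraries remain, these calls describe the remaining libraries.

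The carrier genes named outside the SLC25 series, and the genes that work with the carriers, gave 0 calls with all 6 libraries in each of 5 lists. Of the carriers with other names, Ucp3, the uncoupling protein of muscle, had 487, 566 and 585 CPM in controls and 474, 408 and 429 CPM in the transgenic-labelled libraries, lower without overlap (-0.32 ± 0.14, adjusted p = 0.251). Ucp3 was 1 of 4 tested in this list, where 13.6% of all genes tested lay lower without overlap. Mtch1 had 70.6 ± 3.55 and 78.2 ± 10 CPM. Ucp2, found in many immune cells, had 84.3, 27.1 and 32.4 CPM against 80.5, 64.4 and 55.1 CPM, with an estimate of 0.48 ± 0.41. Without control replicate 1 it rose by 1.16 log2 units (adjusted p = 0.0153). It was 1 of the 4 tested carriers with other names, where 6.08% of all genes tested were called higher in that fit. Ucp1, the uncoupling protein that defines brown fat, had 1 count in all. Together with Cidea, the other of the 2 brown adipocyte markers, it summed to 2.0 to 3.12 CPM in controls and 4.85 to 6.20 CPM in the transgenic-labelled libraries. These sums did not overlap, where 13.8% of all genes tested lay higher without overlap. The sum is nearly all Cidea and so rests on 1 gene. Any part of such cells in the carrier values was not tested. Among the carriers with other names, the 3 tested beside Ucp3 had estimates above 0.

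The list of shuttle enzymes held those that work beside Slc25a11 and Slc25a12, and also Gpd1 and Gpd2 of the glycerol phosphate shuttle. Of the 6 estimates, 2 were above 0 and 4 below. Gpd2, the mitochondrial enzyme of the glycerol phosphate shuttle, had 206, 210.3 and 302 CPM in controls and 135, 177 and 175 CPM in the transgenic-labelled libraries, without overlap (-0.56 ± 0.19, adjusted p = 0.167). Gpd2 was the only 1 of the 6 lower without overlap, where 13.6% of all genes tested were. Got2, the mitochondrial aspartate aminotransferase, had 357, 427 and 439 CPM against 739.9, 399 and 416 CPM. The high value was again in transgenic replicate 1. Of 10 genes of the carrier import route, 2 estimates were above 0 and 8 below, with a median of -0.18. Estimates over all genes tested were above 0 for 46.6%. Without overlap between the groups, 0 of the 10 lay higher and 0 lower. Timm13 and Timm29 had the smallest p, at 71.4 ± 10.4 against 58.3 ± 4.70 CPM and 88.2 ± 13.8 against 72.7 ± 2.99 CPM. Only Timm29 was called lower without control replicate 1 (-0.40, adjusted p = 0.0406). It was 1 of 10, where 6.99% of all genes tested were called lower in that fit.

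Other transport across mitochondrial membranes was covered by 25 genes, 14 with estimates above 0 and 11 below, and a median of 0.01. Abcb8, an ABC transporter, had 40 ± 4.59 and 31.5 ± 2.71 CPM. Slc8b1, the sodium/calcium exchanger, had 26.7 ± 1.54 and 32.7 ± 2.68 CPM, and the porin Vdac1 had 1446 ± 180 and 1099 ± 97.8 CPM. Each was without overlap. In all, 1 of the 25 lay higher without overlap and 2 lower, where 13.8% and 13.6% of all genes tested did so. Without control replicate 1, Cpt1a, which makes the acylcarnitines that Slc25a20 carries, was called higher (0.60, adjusted p = 0.0305). Another porin, Vdac3, was called lower in that fit (-0.44, adjusted p = 0.0408). These were 1 of 25 each way, where 6.08% of all genes tested were called higher and 6.99% lower. Of the 82 oxidative phosphorylation genes tested, 28 estimates were above 0 and 54 below, with a median of -0.08. Cox8b and Cox6a2, muscle forms of cytochrome oxidase subunits, had the smallest p, at 312 ± 49.1 against 182 ± 40.2 CPM (adjusted p = 0.0963) and 617 ± 81.9 against 393 ± 72.5 CPM (adjusted p = 0.119). Both were called lower without control replicate 1. They were the only 2 of the 82 called lower in that fit, where 6.99% of all genes tested were.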

How the data were processed

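Gastrocnemius RNA was measured in 6 libraries, 3 per group, and groups and replicate numbers came from the sample titles and genotype labels. Whole-number counts per Ensembl gene were deposited by the authors, per the file headers. The FPKM values deposited by the authors equal these counts divided by gene length and by 1 constant per library, which varied by at most 6.7e-07% over the genes. HISAT2 2.0.5, featureCounts 1.5.0-p3 and GRCm38 are named in the submitters' processing notes. The counting strand is not given in the sources used here. Other genes that overlap a member, on either strand, were listed for 23 members.

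Counts were fitted with edgeR 4.0.16 in R 4.3.3 on the whole table (filterByExpr, TMM scaling, quasi-likelihood test with legacy = FALSE, Benjamini-Hochberg adjustment over 14973 genes, threshold 0.05). CPM use TMM library sizes. The SE is the absolute log2 fold change over the root of F, and intervals are at 95%. Errors of levels are SDs over 3 libraries. Single values were compared by exact permutation over libraries. On simulated counts for these libraries and 14973 genes, 3 of 50 genes changed 1.5-fold, 25 of 50 changed 2-fold, 46 of 50 changed 4-fold and 50 of 50 changed 8-fold were recovered, and 9 of 133 calls were unchanged genes. The changed genes were drawn only from those above a minimum mean CPM. Low members such as Slc25a13 and Slc25a18 do not reach that level, so the rates do not cover them. No simulated library was made to stand apart.

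The members and lists were chosen with earlier results of these data known. The rule names every member; 1 member is in all counts, sums and medians but is not reported here by name or drawn in the figures. By the rule, values per library are given for the 12 members with the smallest p and for Slc25a4, Slc25a5, Slc25a3, Slc25a11, Slc25a12, Slc25a13, Slc25a20, Slc25a1 and Slc25a51. From each neighbouring list the 2 genes with the smallest p are named, or those called. Slc25a37, Slc25a22, Slc25a10, Slc25a34, Ucp1 and Ucp2 were given more than their means after their values were seen. Vdac1 was named after its values were seen. Alternatives were DESeq2 1.42.0, limma 3.58.1 (voom, and log2 of FPKM plus 1 or 0.1), other scalings and filters, fits without each library, and the replicate number as a block.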

Additional observations from a re-analysis of the deposited data

How the results depend on the processing

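Limits: 3 libraries per group, of which control replicate 1 and transgenic replicate 1 stood apart, gave wide intervals, and the simulated recovery of changes of 1.5-fold was low. Members with estimates near 0 therefore have no stable sign. Of 678 member values under the alternatives, 597 kept their direction and their side of the threshold, 71 changed sign and 11 passed the threshold, 1 of which (Slc25a3) also changed sign, and 22 of the 40 members never changed sign. Fewer samples remained in the fits that left libraries out. The cause of the sign changes was not tested.

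Scaling by library totals alone moved the median estimate over all genes from -0.03 to 0.12 and the calls over all genes from 118 higher and 76 lower to 205 and 54. The members' median was then 0.12, and the values that changed sign were 0.061 for Slc25a4, 0.14 for Slc25a11, 0.10 for Slc25a20, 0.066 for Slc25a51, 0.10 for Slc25a16, 0.025 for Slc25a38, 0.13 for Slc25a29, 0.0086 for Slc25a1 and 0.033 for Slc25a18. Scaling by the oxidative phosphorylation genes gave a median of 0.12 for all genes and 0.10 for the members, with 0.074 for Slc25a11, 0.088 for Slc25a20, 0.082 for Slc25a51, 0.00898 for Slc25a28, 0.00398 for Slc25a44, 0.14 for Slc25a16, 0.04999 for Slc25a38, 0.10 for Slc25a29 and 0.015 for Slc25a1. Relative to the shifted median the members' median stayed near that of all genes, and 0 members were called under either. The calls over all genes under the oxidative phosphorylation scaling were 29 higher and 9 lower, and DESeq2 called 583 and 482.

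With limma-voom the estimates were -0.011 for Slc25a3, -0.011 for Slc25a22 and 0.020 for Slc25a1. With log2(FPKM + 1) they were -0.0053, -0.0025 and 0.018, and with log2(FPKM + 0.1) -0.0055, -0.0058 and 0.049, with -0.0028 for Slc25a15. Without the low-count filter Slc25a11 was at 0.0069. With a pseudocount of 0.1 FPKM the Slc25a12/Slc25a13 ratio differed by 0.034, with 1 FPKM by 0.22, and the Slc25a34/Slc25a35 ratio by -0.11.

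No label says whether the replicate numbers pair the libraries. Deviations of same-numbered libraries correlated at -0.02, -0.17 and 0.16, and 2 of 6 libraries correlated best with their own number. With 3 libraries per group these values cannot decide whether libraries were paired. With the replicate block 2 genes of all were called higher and 3 lower, 0 of them members, and the estimates were -0.010 for Slc25a3, -0.0061 for Slc25a22, -0.00023 for Slc25a15 and 0.031 for Slc25a1.

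Leaving out each library in turn gave 0 to 1 members called higher and 0 to 2 lower, a members' median of -0.095 to 0.072 and a log2 ratio of the summed level of -0.35 to 0.022. The estimates ran from -0.43 to 0.067 for Slc25a4, -0.24 to 0.15 for Slc25a3, -0.37 to 0.16 for Slc25a11, -0.18 to 0.038 for Slc25a20, -0.30 to 0.50 for Slc25a1, -0.24 to 0.23 for Slc25a15, -0.13 to 0.030 for Slc25a16, -0.55 to 0.11 for Slc25a18, -0.32 to 0.24 for Slc25a22, -0.35 to 0.0081 for Slc25a28, -0.19 to 0.10 for Slc25a29, -0.25 to 0.038 for Slc25a38, -0.13 to 0.91 for Slc25a45 and -0.048 to 0.21 for Slc25a46. The ratios ran from -0.36 to 0.21 for Slc25a12/Slc25a13, -0.68 to 0.31 for Slc25a18/Slc25a22, -0.056 to 0.14 for Slc25a29/Slc25a20 and -0.41 to 0.53 for Slc25a34/Slc25a35. Calls over all genes ran from 0 without control replicate 3 (2116 genes at an unadjusted p under 0.05) to 910 higher and 1046 lower without control replicate 1.

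Without control replicate 1 and transgenic replicate 1, a fit added after the data were seen, 2 members were called higher and 6 lower and the members' median was -0.14. The values that changed sign were -0.33 for Slc25a3, -0.0093 for Slc25a12, 0.11 for Slc25a25, -0.37 for Slc25a22, -0.17 for Slc25a46, -0.22 for Slc25a15, 0.52 for Slc25a1 and 0.18 for Slc25a18.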
